A study of Mus musculus with 2 samples.

Results

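The genes described here are 50 mouse cell cycle genes, 22 of which were listed under S phase (Mcm2 to Clspn) and 28 under G2 and mitosis (G2/M). They were taken by name from the 13289 genes listed in both of the study's libraries, with earlier results of these data known. All 50 were present in both. Their UMIs, the unique molecular identifiers that each count 1 captured transcript, were read in every cell barcode with at most 20% of its UMIs from mitochondrial genes. The study sorted live (Zombie aqua-) CD45+ CD11b+ Ly6G- cells from tibialis anterior muscle on day 4 after an injection of 50 µl of 10 µM cardiotoxin, a snake venom toxin that destroys muscle fibres, and profiled them by droplet 3′ single-cell RNA sequencing. The Wt library came from C57BL/6 mice. The Gata3KO library came from C57BL/6:Cx3cr1CRExGata3fl/fl mice, in which Cre made from the Cx3cr1 gene, active in monocytes and macrophages, deletes the floxed part of Gata3. The labels do not state the sex, age or number of mice behind each library. With 1 library per genotype there was no replicate and no test between genotypes. All intervals below are 95% intervals that cover counting error only, and p-values were not computed.

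A cell that divides first copies its DNA in S phase and then segregates the copies in mitosis. The S genes load and drive the replicative helicase, supply deoxynucleotides and package the new DNA, and their transcription rises with E2F factors around the start of S phase. Most of the G2/M genes condense chromosomes, build the spindle or operate the kinase and ubiquitin ligase switches of mitosis. Many are controlled late in the cycle through CCAAT boxes and the cell cycle homology region (CHR). Macrophages of injured muscle derive largely from blood monocytes and are known to divide within the lesion while muscle precursor cells proliferate beside them.

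The sequences just upstream of 6 members show these elements, because the members of the 2 phases were read below as groups. They are RefSeq sequences of build GRCm38.p6, 150 bases that end at the base before the annotated transcription start, written 5′ to 3′ on the strand of the gene. The 6 were the first members named by rule in each phase whose stretch contains no annotated exon. Capitals mark a CCAAT box, an E2F element or a CHR (TTTGAA or TTCGAA) on either strand. Mcm5, a helicase subunit, is at chr8:75109359-75109508 on the plus strand. Cdc6, a helicase loader, is at chr11:98908001-98908150 on the plus strand. Rrm1, the large subunit of ribonucleotide reductase, is at chr7:102441545-102441694 on the plus strand. Mki67, which coats mitotic chromosomes, is at chr7:135716380-135716529 on the minus strand. Top2a, the topoisomerase that untangles sister DNA, is at chr11:99024190-99024339 on the minus strand. Hmgb2, a DNA-bending chromatin protein, is at chr8:57511693-57511842 on the plus strand.
Mcm5: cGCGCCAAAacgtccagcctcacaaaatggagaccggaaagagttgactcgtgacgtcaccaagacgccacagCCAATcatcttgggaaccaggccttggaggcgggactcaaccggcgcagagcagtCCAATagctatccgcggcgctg
Cdc6: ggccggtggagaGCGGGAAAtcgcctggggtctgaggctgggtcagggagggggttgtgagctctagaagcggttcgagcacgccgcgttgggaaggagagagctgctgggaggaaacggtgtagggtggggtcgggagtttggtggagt
Rrm1: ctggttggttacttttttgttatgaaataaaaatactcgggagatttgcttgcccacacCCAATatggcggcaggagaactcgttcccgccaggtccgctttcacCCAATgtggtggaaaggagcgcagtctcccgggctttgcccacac
Mki67: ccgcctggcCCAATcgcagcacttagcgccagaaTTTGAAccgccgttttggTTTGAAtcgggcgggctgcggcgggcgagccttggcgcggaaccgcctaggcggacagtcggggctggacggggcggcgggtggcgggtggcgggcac
Top2a: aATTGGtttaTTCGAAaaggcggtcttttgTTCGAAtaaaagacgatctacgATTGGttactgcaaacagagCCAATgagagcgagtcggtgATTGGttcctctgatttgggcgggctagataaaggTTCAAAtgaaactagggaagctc
Hmgb2: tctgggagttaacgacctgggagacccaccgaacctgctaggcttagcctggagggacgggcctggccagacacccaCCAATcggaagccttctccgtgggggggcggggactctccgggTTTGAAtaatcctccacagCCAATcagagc

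All 3 of the G2/M stretches shown have at least 1 CHR and at least 1 CCAAT box, and none of the 3 S stretches has a CHR. Top2a has 3 CHR and 4 CCAAT matches, and its nearest CHR begins 23 bases before the start. Mki67 has CHR matches that begin 116 and 98 bases before the start, and the single CHR of Hmgb2 begins 30 bases before it. Mcm5 and Cdc6 each have an E2F match, 149 and 138 bases before the start, and Rrm1 has CCAAT boxes only.

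Promoters of 42 of the 50 members (19 S and 23 G2/M) were found in the RefSeq table, each from 250 bases before to 50 bases after the start. A CHR (TTTGAA or TTCGAA) was present in 16 of 23 G2/M promoters (69.6%) and in 4 of 19 S promoters (21.1%), against 19.4% of the 27025 genes in the table. A CHR together with a CCAAT box was present in 15 G2/M promoters (65.2%) and 4 S promoters (21.1%), against 7.70% of all genes. CCAAT alone did not separate the phases: it was in 82.6% of G2/M and 78.9% of S promoters, against 37.9% of all. E2F elements (TTTGGCGC, TTTCCCGC, TTTGGCGG, TTTCGCGC, TTTGCCGC or TTTCCCGG) were in 8 of 19 S promoters (42.1%) and 3 of 23 G2/M promoters (13.0%), against 4.04% of all. The Sp1 letters GGGCGG were in 63.2% of S and 87.0% of G2/M promoters, against 35.9% of all. Every motif was searched on both strands, the E2F and Sp1 letters can overlap, and a match of letters is a description of the sequence and not evidence that a factor binds.

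The Wt library held 3290 barcodes and 15392330 UMIs, and the Gata3KO library held 3434 barcodes and 19422237 UMIs. The mitochondrial limit kept 2040 Wt (62.0%) and 1499 Gata3KO barcodes (43.7%), with medians of 3383 and 4640 UMIs per kept cell, and 2 barcodes occur in both libraries. Gata3 itself gave 7 UMIs in Wt and 5 in Gata3KO kept cells, too few to check the genotype label, and 3′ tags may lie outside the deleted part. Cx3cr1, whose gene carries the Cre, was at 233 CPM (UMIs of a gene per 1000000 UMIs of the same cells) in Wt and 369 CPM in Gata3KO.

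Cycling cells were called without the 50 members. A separate list of 78 cycle genes, 77 of them measured in both libraries, was read in cells thinned at random to 2000 UMIs, and a cell counted as cycling with at least 4 UMIs from at least 3 of these genes. The members' values below are therefore not what chose the cells, although members and calling genes belong to the same programme. The thinning left out 613 Wt and 248 Gata3KO cells with fewer than 2000 UMIs. A macrophage had at least 0.2% of its UMIs on 13 phagocyte genes and under 0.5% on 16 collagen and fibroblast genes. Of the cells deep enough, 1302 of 1427 in Wt and 1170 of 1251 in Gata3KO were macrophages.

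Cycling cells were a small minority of macrophages in both libraries. They were 74 of 1302 Wt macrophages (5.68%, exact Clopper-Pearson interval 4.49 to 7.08%) and 47 of 1170 Gata3KO macrophages (4.02%, 2.97 to 5.31%). The difference, Gata3KO minus Wt, was -1.67 percentage points, with a Newcombe interval of -3.37 to 0.05, so the 2 macrophage shares were not separated beyond counting error. Over all cells deep enough the shares were 6.52% (93 of 1427) and 4.64% (58 of 1251), a difference of -1.88 points (-3.62 to -0.13). On either side of the limit, 71 Wt cells (4.98%) and 65 Gata3KO cells (5.20%) lay within 1 UMI of it, so the class is a range and not a sharp type.

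The cells called cycling macrophages expressed macrophage genes. C1qa, a complement subunit of tissue macrophages, was at 2474 CPM in Wt and 2489 CPM in Gata3KO cycling macrophages, and Csf1r, the receptor for the macrophage growth factor CSF1, was at 549 and 502 CPM. Both are on the list that defined macrophages. The collagen list summed to 42.3 and 31.1 CPM in them. They were deeper cells, with medians of 8698 UMIs in Wt and 16874 in Gata3KO against 5200 and 5919 in the other macrophages. Median mitochondrial shares were 7.98% and 8.60% in cycling and 9.14% and 11.3% in other macrophages. The part of this depth gap in the levels was not tested, while the cycling call itself used an equal number of UMIs from each cell.

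All 22 S members and all 28 G2/M members were at least 1.5-fold higher in cycling than in other macrophages, in both libraries. Over all 10356 genes with at least 20 UMIs in the comparison in each library, 10.8% were higher and 5.91% lower by that rule. The G2/M members differed more than the S members: the median log2 ratio of G2/M members was 4.57 in Wt and 4.53 in Gata3KO, and that of S members was 2.45 and 2.97. Summed over the list, G2/M members rose 16.0-fold in Wt (464 to 7435 CPM) and 17.5-fold in Gata3KO (403 to 7045 CPM). Summed S members rose 5.08-fold (280 to 1424 CPM) and 5.47-fold (293 to 1603 CPM). The calling list has 48 G2/M and 30 S genes, and its part in this contrast between phases was not tested. As each transcript is tagged once at its 3′ end, CPM values are not divided by transcript length.

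**Figure D1:**
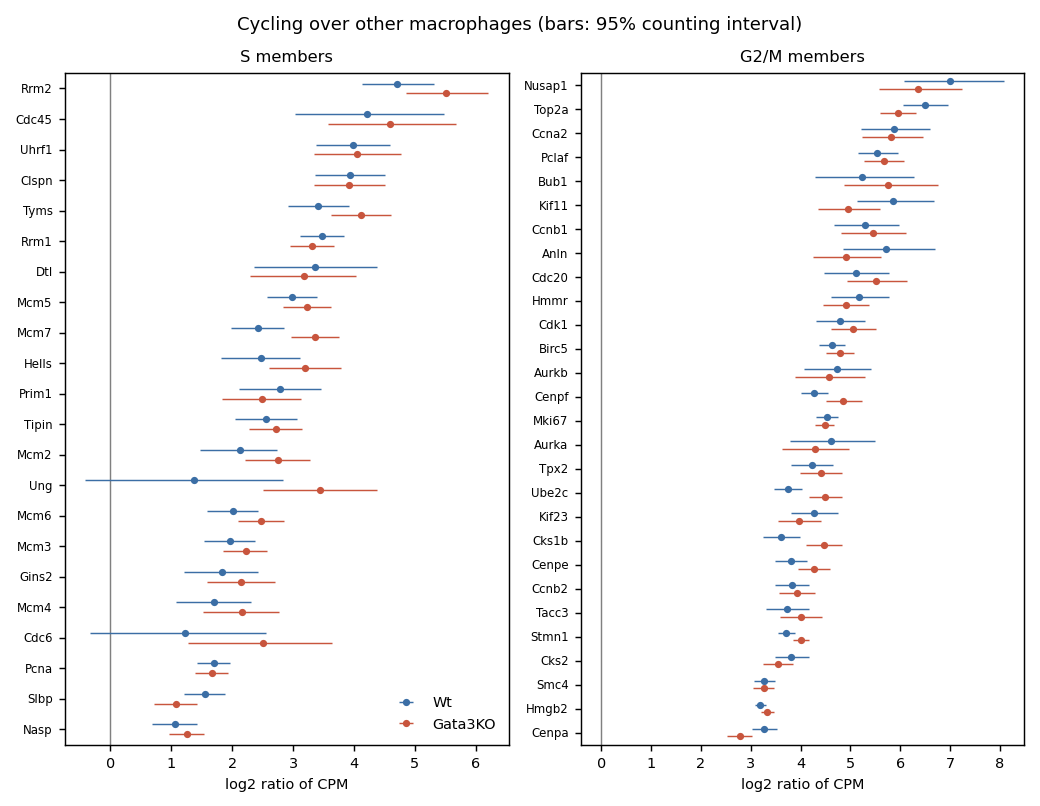
Log2 ratio of each member's CPM in cycling over other macrophages (x axis), S members on one panel and G2/M members on the other, with 1 mark per library and bars for the 95% counting interval. Every member is at least 1.5-fold higher in cycling macrophages in both libraries, and most G2/M members lie farther to the right than most S members.

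Among the replication factors, the helicase subunits Mcm2 to Mcm7 moved together but not equally. Mcm5 (ENSMUSG00000005410) rose from 12.7 to 101 CPM in Wt and from 11.3 to 106 CPM in Gata3KO, log2 ratios of 2.98 and 3.23. The least changed of the 6, Mcm4, rose from 10.3 to 33.6 CPM and from 7.72 to 34.5 CPM. Pcna (ENSMUSG00000027342), the sliding clamp of the replication fork, was the highest S member in cycling macrophages but was also high outside them. Its level rose from 49.2 to 160 CPM in Wt and from 51.1 to 162 CPM in Gata3KO, log2 ratios of 1.70 and 1.67. Cdc45, which completes the active helicase, rose from 1.11 to 20.6 CPM and from 1.15 to 27.8 CPM. Cdc6 (ENSMUSG00000017499) was near the limit of detection in Wt, with 2.77 against 6.51 CPM and a log2 ratio of 1.23 whose interval held 0 (-0.34 to 2.55). In Gata3KO its ratio was 2.51 (1.27 to 3.65), from 1.95 to 11.1 CPM. Ung, a uracil-DNA glycosylase, was similar, with a Wt log2 ratio of 1.37 (-0.41 to 2.83) and a Gata3KO ratio of 3.44 (2.50 to 4.37).

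The enzymes that make deoxynucleotides were among the steepest S members. Rrm2, the small subunit of ribonucleotide reductase, rose from 3.77 to 98.7 CPM in Wt and from 2.22 to 101 CPM in Gata3KO, log2 ratios of 4.71 and 5.51. Rrm1 rose from 13.2 to 146 CPM and from 13.0 to 130 CPM, and Tyms, thymidylate synthase, from 7.43 to 79.2 CPM and from 5.32 to 92.2 CPM. Uhrf1, which maintains DNA methylation on new strands, rose from 4.32 to 68.4 CPM and from 2.75 to 45.6 CPM. The histone-supply members Nasp and Slbp were among the S members with the lowest ratios. Nasp, a histone chaperone, rose from 40.1 to 83.6 CPM in Wt and from 55.4 to 132 CPM in Gata3KO, log2 ratios of 1.06 and 1.26. Slbp, which binds the stem-loop of histone messenger RNAs, rose from 35.8 to 105 CPM and from 42.1 to 88.9 CPM, log2 ratios of 1.56 and 1.08.

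The G2/M members that act on chromatin ranged widely in level. Hmgb2 (ENSMUSG00000054717) rose from 138 to 1259 CPM in Wt and from 104 to 1050 CPM in Gata3KO, log2 ratios of 3.19 and 3.33. Mki67 (ENSMUSG00000031004), the gene of the Ki-67 antigen, rose from 26.2 to 604 CPM and from 31.9 to 711 CPM, log2 ratios of 4.53 and 4.48. Top2a (ENSMUSG00000020914) was among the sharpest, from 5.32 to 477 CPM and from 7.10 to 439 CPM, log2 ratios of 6.49 and 5.95. Smc4, a condensin subunit, was already at 41.0 and 37.4 CPM in other macrophages and rose to 396 and 357 CPM. Pclaf, a PCNA-associated factor, rose from 6.87 to 320 CPM and from 5.86 to 297 CPM.

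The spindle and kinetochore members differed in their level outside cycling macrophages. Nusap1, a spindle microtubule binder, had the largest Wt ratio of all members, from 1.11 to 141 CPM (log2 6.99), and rose from 1.33 to 109 CPM in Gata3KO (log2 6.35). Cenpf, a large kinetochore-associated protein, rose from 18.2 to 352 CPM and from 8.34 to 242 CPM. Bub1, a kinase of the spindle checkpoint, rose from 1.33 to 49.9 CPM and from 1.15 to 62.2 CPM. Cenpa, the histone H3 variant of centromeres, had a higher level in other macrophages, rising from 27.9 to 270 CPM (log2 3.27) and from 34.5 to 237 CPM (log2 2.78). Stmn1, which destabilises microtubules, was the second highest G2/M member and rose from 53.9 to 706 CPM and from 47.6 to 767 CPM.

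The kinase and ubiquitin ligase members were likewise low in other macrophages of both libraries. Ccnb1, cyclin B1, rose from 2.88 to 113 CPM in Wt and from 2.40 to 104 CPM in Gata3KO, and Cdk1, its kinase, from 5.54 to 153 CPM and from 5.15 to 171 CPM. Cdc20, an activator of the anaphase-promoting complex, rose from 2.99 to 103 CPM and from 2.75 to 126 CPM. Birc5 and Aurkb belong to the chromosomal passenger complex that corrects chromosome attachment. Birc5 rose from 18.5 to 456 CPM and from 13.8 to 383 CPM, while Aurkb rose from 2.99 to 79.2 CPM and from 2.48 to 58.9 CPM. Cks1b, a small subunit of cyclin-dependent kinases, rose from 12.9 to 157 CPM and from 8.96 to 198 CPM.

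At an equal 2000 UMIs per cell, the same contrast was seen in how many cells held a UMI of a member. Mki67 was found in 51.4% of Wt and 53.2% of Gata3KO cycling macrophages, against 4.23% and 5.08% of other macrophages. Without thinning the shares were 66.2% and 78.7% against 10.3% and 13.4%. Hmgb2 was less exclusive, at 59.5% and 70.2% of cycling and 23.0% and 18.1% of other macrophages. Free RNA can give UMIs in any droplet. The other macrophages may also include dividing cells that the call missed, so their shares do not measure free RNA alone. Among them 34 of 1228 in Wt and 21 of 1123 in Gata3KO held at least 2 UMIs of both phases. By contrast Cdc6 was found in 2.70% of Wt and in 0 of 47 Gata3KO cycling macrophages, which allows an exact upper limit of 7.55% of cells with a UMI, so that it could not mark single cycling cells at this depth.

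The 2 phases also differed in how much of their RNA lay outside the cells called cycling. The call itself rested more on G2/M genes. Its 48 G2/M and 30 S genes had 6847 and 3828 UMIs in Wt kept cells, and 5172 and 3683 in Gata3KO. Cells in S phase could thus be missed more often, and the part of this in the contrast was not tested. Over both libraries a median of 55.8% of the UMIs of an S member came from cells not called cycling, from 18.9% for Rrm2 to 78.99% for Slbp, and 14 of 22 S members had over 50% there. Nasp had 73.9% and Pcna 73.8% of their UMIs there. The median of G2/M members was 28.4%, from 8.65% for Nusap1 to 52.8% for Cenpa. Smc4 had 49.8% and Top2a 10.9%. The shares differed between the libraries: the medians were 52.8% in Wt and 56.3% in Gata3KO for S members, and 24.1% and 31.5% for G2/M members. In Wt 13 S members and 0 G2/M members had over 50% outside, and in Gata3KO 15 and 4 (Cenpa, Smc4, Hmgb2 and Cks2).

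Each cycling macrophage was also read for its phase. With at least 2 UMIs of a phase among 2000, 9 of 74 Wt cells had S members only, 27 had G2/M members only, 30 had both and 8 had neither. In Gata3KO the numbers were 5, 17, 22 and 3 of 47. The median cell held 2 S member UMIs in both libraries (0 to 11 in Wt, 0 to 9 in Gata3KO), against 6.5 G2/M member UMIs in Wt (0 to 51) and 12 in Gata3KO (0 to 34). Across cells, the S and G2/M counts had a Spearman rho of 0.14 in Wt and -0.25 in Gata3KO, values that share each cell's fixed total of UMIs and are given as a description. In both libraries G2/M transcripts thus outnumbered S transcripts, and the calling list itself has 48 G2/M and 30 S genes, so these numbers do not give the time spent in a phase.

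**Figure D2:**
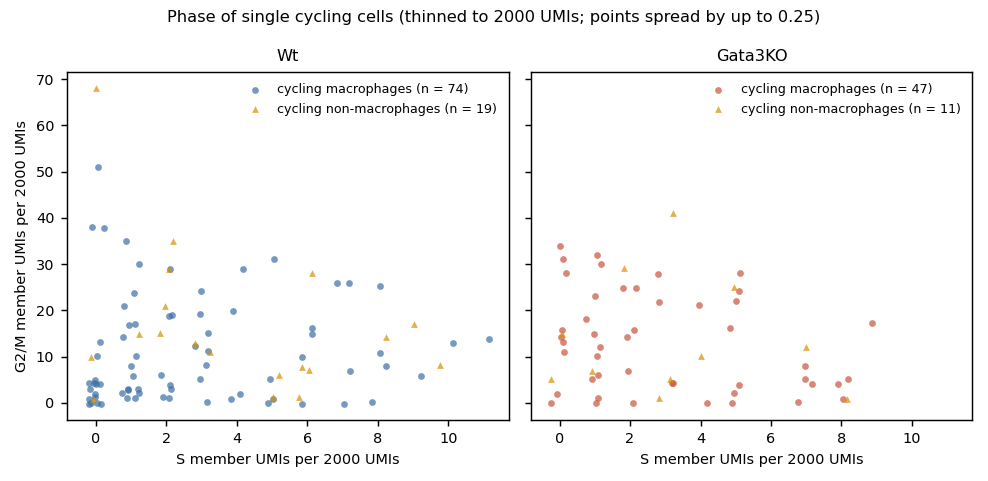
UMIs of S members (x axis) and of G2/M members (y axis) per 2000 UMIs in single cycling cells, 1 panel per library, with macrophages and other cycling cells marked apart and points spread by up to 0.25. The G2/M axis runs far beyond the S axis: in Wt macrophages the highest cell has 51 G2/M and the highest S count is 11.

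Of all member UMIs in cycling macrophages, S members made up 16.1% in Wt (15.3 to 16.9%) and 18.5% in Gata3KO (17.7 to 19.4%). In other macrophages the S share was 37.6% and 42.1%. The higher Gata3KO share in cycling macrophages depended on which cells were called: with another random thinning it was 16.7%, with at least 6 UMIs from 4 genes 16.4%, and with a 10% mitochondrial limit 21.1%.

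To read single members by phase, cycling macrophages were split by whether S or G2/M genes of the separate calling list gave more UMIs. This gave 24 S-leaning and 50 G2/M-leaning cells in Wt and 18 and 29 in Gata3KO, with none of the 50 members used for the split. The genes of the split and the members belong to the same programme. A rise of G2/M members in G2/M-leaning cells was therefore largely built in and is no separate check of the labels. The G2/M-leaning cells were deeper, with medians of 12788.5 UMIs in Wt and 21861 in Gata3KO against 5539.5 and 13366.5, and the part of depth in the difference was not tested. Of the 28 G2/M members, 27 were at least 1.5-fold higher in G2/M-leaning cells of both libraries, where 7.11% of 5247 genes were. Of 18 S members with enough UMIs, 11 were at least 1.5-fold lower there in both libraries, where 4.38% of all genes were, and 0 were higher. The remaining 4 S members (Ung, Dtl, Cdc6 and Cdc45) had under 20 UMIs in at least 1 library.

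All 6 helicase genes, Mcm2 to Mcm7, were among the 11 S members lower by the 1.5-fold rule in G2/M-leaning cells. In Wt the intervals of Mcm4 (log2 -0.87) and Mcm7 (log2 -0.64) held 0, as did those of Nasp and Prim1. In Gata3KO the intervals of these genes lay below 0. Mcm5 went from 188 CPM in S-leaning to 74.8 CPM in G2/M-leaning cells in Wt and from 244 to 43.5 CPM in Gata3KO, log2 ratios of -1.33 and -2.49. Hells, a chromatin remodeller of the SNF2 family, had log2 ratios of -2.54 and -3.12, and Mcm2 of -2.10 and -2.44. Gins2, Nasp, Prim1 (primase) and Tipin (a fork protection factor) completed the 11.

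Unlike the helicase genes, the nucleotide enzymes were not lower by the 1.5-fold rule in either library. Tyms had log2 ratios of 0.22 in Wt (-0.62 to 1.14) and 0.14 in Gata3KO (-0.57 to 0.89), and Rrm1 of 0.07 (-0.52 to 0.71) and 0.13 (-0.46 to 0.75). Rrm2 had opposite signs, 0.73 (-0.11 to 1.66) and -0.41 (-1.05 to 0.25). These intervals all hold 0. In Wt those of Tyms and Rrm1 overlap the intervals of Mcm4 and Mcm7, so counting error does not separate these genes there. Pcna was lower in G2/M-leaning cells of Gata3KO (312 to 94.97 CPM, log2 -1.72) and had a Wt ratio of -0.26 (-0.80 to 0.30).

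Some G2/M members had few or no UMIs in S-leaning cells, and others were well present there. Birc5 was at 98.5 CPM in S-leaning and 563 CPM in G2/M-leaning cells of Wt, and at 50.3 and 533 CPM in Gata3KO. Cenpf was at 9.38 CPM in S-leaning and 455 CPM in G2/M-leaning cells of Wt, and at 3.59 and 349 CPM in Gata3KO. Ccnb2, cyclin B2, had 0 UMIs in S-leaning Wt cells against 254 CPM, at least 18.1-fold higher when 3 UMIs are taken as the floor of that group, and was at 3.59 against 238 CPM in Gata3KO. Cdc20 likewise had 0 UMIs against 134 CPM in Wt, at least 9.53-fold higher, and 3.59 against 180 CPM in Gata3KO. The 3 most abundant members were graded instead: log2 ratios were 2.68 and 2.14 for Mki67, 1.38 and 1.48 for Hmgb2, and 1.27 and 1.23 for Stmn1. Pclaf, the PCNA-associated factor that the list places under G2/M, was the 1 G2/M member that did not pass in both libraries. Its log2 ratios were 1.36 in Wt and 0.54 in Gata3KO.

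**Figure D3:**
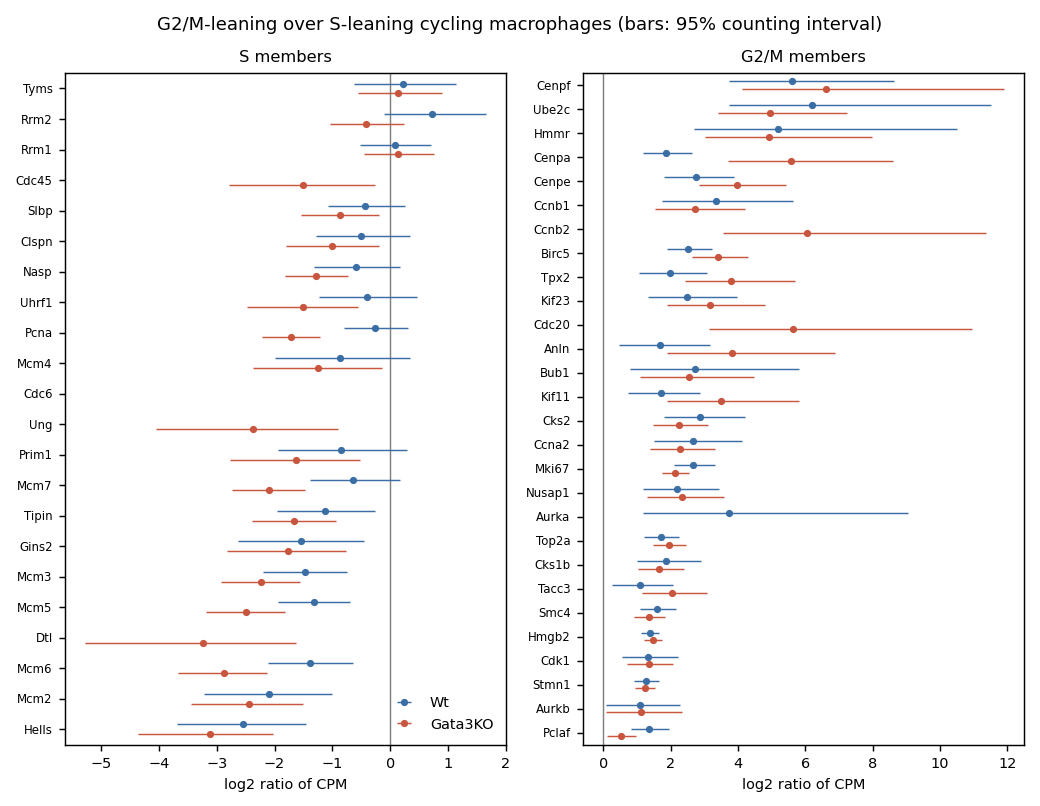
Log2 ratio of each member's CPM in G2/M-leaning over S-leaning cycling macrophages (x axis), 1 mark per library with its 95% counting interval; members with no UMI on one side or with under 20 UMIs are not drawn. G2/M members lie to the right of 0, helicase genes such as Mcm5 (-1.33 and -2.49) to the left, and Tyms and Rrm1 at about 0.

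A comparison of macrophage with collagen-rich cycling cells could not be made as intended. Among cells deep enough, 9 Wt and 7 Gata3KO cells had at least 0.5% of their UMIs on the collagen list, and 0 of the 9 and 1 of the 7 were cycling. For 0 of 9 the exact upper limit is 33.6%. The 1 cycling collagen-rich cell had 90222 UMIs and 7482 CPM on the collagen list, and held 2948 CPM of S and 4001 CPM of G2/M members, an S share of 42.4%.

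Cycling cells that were not macrophages were therefore set beside cycling macrophages, a choice made after seeing this. They were 19 of 125 Wt cells outside the macrophage class (15.2%, 9.41 to 22.7%) and 11 of 81 Gata3KO cells (13.6%, 6.98 to 23.0%). In the Wt library these cells carried muscle transcripts and also more collagen transcripts than cycling macrophages, though none was collagen-rich by the limit. The collagen list was at 884 CPM in them against 42.3 CPM in cycling macrophages. The muscle list was at 2330 CPM in them against 228 CPM in cycling macrophages, and Myog and Myod1, regulators of muscle differentiation and identity, were at 438 and 230 CPM against 15.2 and 5.43 CPM. Pax7, a marker of muscle stem cells, was at 54.2 CPM against 0 UMIs.

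Few cells set these values. In Wt, 6 of the 19 cells had a UMI of Pax7, Myod1 or Myog, a split chosen after the values were seen, and they held 73.1% of the UMIs of the 19. Their myeloid surface genes summed to 94.8 CPM, against 3946 CPM in the other 13 cells, their muscle list to 3159 against 72.6 CPM and their collagen list to 1203 against 16.1 CPM. S members summed to 2092 CPM (1941 to 2253) in the 6 and 2001 CPM (1760 to 2267) in the 13. G2/M members summed to 8983 CPM (8666 to 9309) in the 6, above the 7780 CPM (7297 to 8287) in the 13. The deepest of the 6 cells alone held 1333 of their 3031 G2/M member UMIs, at 10898 CPM (10321 to 11499). The excess of the 6 therefore rests in large part on 1 cell. In Gata3KO only 1 of 11 such cells had a UMI of those regulators, and the collagen-rich cell alone held 46.9% of the UMIs of the 11.

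Within each library, 5 of 20 S members (Mcm4, Rrm2, Hells, Nasp and Dtl) and 1 of 28 G2/M members (Cdc20) were at least 1.5-fold higher in non-macrophage than in macrophage cycling cells in both libraries, and 0 were lower. Among all 6228 genes, 11.4% were higher and 18.4% lower in both. With the deepest cell left out of each library and class, 3 members were higher in both. Rrm2 was at 264 against 98.7 CPM in Wt and 208 against 101 CPM in Gata3KO, and Nasp at 260 against 83.6 CPM and 291 against 132 CPM. The summed S members were higher in both libraries, log2 0.54 (0.42 to 0.66) in Wt and 0.52 (0.36 to 0.68) in Gata3KO. The Gata3KO value rested on the collagen-rich cell, which held 266 of the 442 S member UMIs. Without it S members were at 1724 CPM (1479 to 1999), against 1603 CPM (1521 to 1687) in cycling macrophages, intervals that overlap. The summed G2/M members went opposite ways, log2 0.22 (0.16 to 0.28) in Wt and -0.59 (-0.69 to -0.48) in Gata3KO. The Wt value rested in large part on the deepest non-macrophage cycling cell, which held 1333 of the 3995 G2/M member UMIs, at 10898 CPM. Cdk1 also went opposite ways, at 423 against 153 CPM in Wt and 83.2 against 171 CPM in Gata3KO.

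Over all kept cells, G2/M members were lower in the Gata3KO than in the Wt library, and S members were nearly level. All 28 G2/M members had a log2 ratio Gata3KO over Wt below 0 (19 of 28 when every cell was weighted alike), and 12 were lower by at least 1.5-fold. None was higher by that rule. Among 12305 genes, 14.9% were lower and 6.57% higher. With every cell weighted alike, 3 of the 28 were lower and 0 higher, where 1788 of the 12305 genes were lower. The summed G2/M level was 1321 CPM in Wt and 923 CPM in Gata3KO, a log2 ratio of -0.52 (-0.55 to -0.48) that became -0.15 with cells weighted alike. Of the 22 S members, 1 was lower (Rrm2, log2 -0.66) and 0 were higher, and the summed level was 438 CPM in Wt and 412 CPM in Gata3KO, a log2 ratio of -0.09 (-0.14 to -0.03) that became 0.08 with cells weighted alike. The median of all genes was -0.02.

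The G2/M members with the lowest ratios were mitotic regulators. Cenpf was at 58.7 CPM in Wt and 25.9 CPM in Gata3KO (log2 -1.18), Ccnb1 at 22.0 and 9.79 CPM (-1.17), and Ube2c, the ubiquitin-conjugating enzyme of the anaphase-promoting complex, at 63.0 and 29.2 CPM (-1.11). Hmgb2 was at 279 and 177 CPM (-0.65) and Top2a at 63.5 and 40.5 CPM (-0.65), whose ratio turned to 0.13 with cells weighted alike. Mki67 was nearly the same in both libraries, at 89.1 and 86.1 CPM (-0.05, -0.17 to 0.07), a ratio of 0.38 with cells weighted alike. Among S members Nasp had the highest ratio, at 50.8 and 64.4 CPM (0.34, 0.19 to 0.50).

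The libraries also differed in which cells held these UMIs, and the part of this in the difference was not tested. Cycling cells that were not macrophages, 19 cells in Wt and 11 in Gata3KO, held 24.9% of the G2/M member UMIs of all kept Wt cells and 7.31% of those of Gata3KO cells, with 3.80% and 1.44% of all UMIs. Cycling macrophages held 42.7% and 51.3%, and other macrophages 26.1% and 36.8%. For S members the non-macrophage cycling cells held 17.96% and 8.01%. Within macrophages deep enough for the call, the summed G2/M ratio was -0.31 (-0.35 to -0.27) and the S ratio 0.01 (-0.05 to 0.08). There 4 G2/M members (Cenpf, Ube2c, Nusap1 and Aurkb) and 1 S member (Uhrf1) were lower and 0 higher, where 11.9% of 11613 genes were lower and 7.18% higher. Cenpf was at log2 -0.94 and Ube2c at -0.67 in that class, while Ccnb1 moved from -1.17 to -0.39 and Cdk1 from -0.91 to -0.14. In the macrophages not called cycling, the summed G2/M ratio was -0.20 (-0.26 to -0.14). There 2 G2/M members were lower, Cenpf (-1.12) and Ube2c (-0.94), and 1 was higher, Anln (0.73). Among 11451 genes 11.8% were lower and 7.45% higher in those cells.

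**Figure D4:**
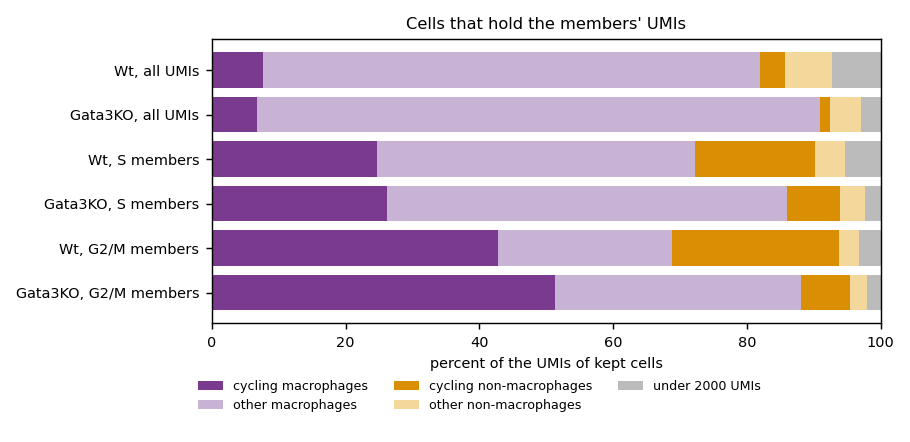
Percent of the UMIs of kept cells (x axis) held by each class of cells, for all genes, S members and G2/M members in each library. Cycling cells that are not macrophages hold 24.9% of G2/M member UMIs in Wt and 7.31% in Gata3KO.

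Within cycling macrophages most members differed little between the libraries. None of the 28 G2/M members was past 1.5-fold either way, where 13.2% of 7807 genes were higher and 11.8% lower. Without the deepest cell of each library Cdc20 was, at log2 0.60 (0.16 to 1.04) against 0.28 with it. Their median log2 ratio was -0.11, and the summed ratio was -0.08 (-0.13 to -0.03), which became 0.17 when every cell was weighted alike. The lowest ratios were those of Cenpf, at 352 CPM in Wt and 242 CPM in Gata3KO (-0.54, -0.79 to -0.29), and Aurkb (-0.43, -0.97 to 0.10). The highest were those of Cks1b (0.33, 0.01 to 0.66) and Bub1 (0.32, -0.27 to 0.91), and Mki67 was at 0.23 (0.07 to 0.40). Besides Cenpf, the intervals of Hmgb2 (-0.26, -0.39 to -0.14) and Birc5 (-0.25, -0.46 to -0.04) lay below 0, and these became 0.10 and 0.084 with cells weighted alike.

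Of 21 S members measured in cycling macrophages, 3 were higher and 1 lower by 1.5-fold, near the 13.2% and 11.8% of all genes. Nasp was at 83.6 CPM in Wt and 132 CPM in Gata3KO (log2 0.66, 0.24 to 1.10), found in 31 of 74 and 26 of 47 cells. Mcm2 was at 34.7 and 53.3 CPM (0.62, -0.06 to 1.31). Ung rested on 5 UMIs in Wt and 20 in Gata3KO (5.43 and 22.2 CPM, log2 2.03, 0.58 to 3.80), and 5 of the 20 came from 1 cell. The lower one, Uhrf1, was at 68.4 and 45.6 CPM (-0.59, -1.19 to 0.00). The summed S ratio, 0.17 (0.06 to 0.28), became -0.08 with another random thinning of the same cells, so its direction is not fixed by these data.

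**Figure D5:**
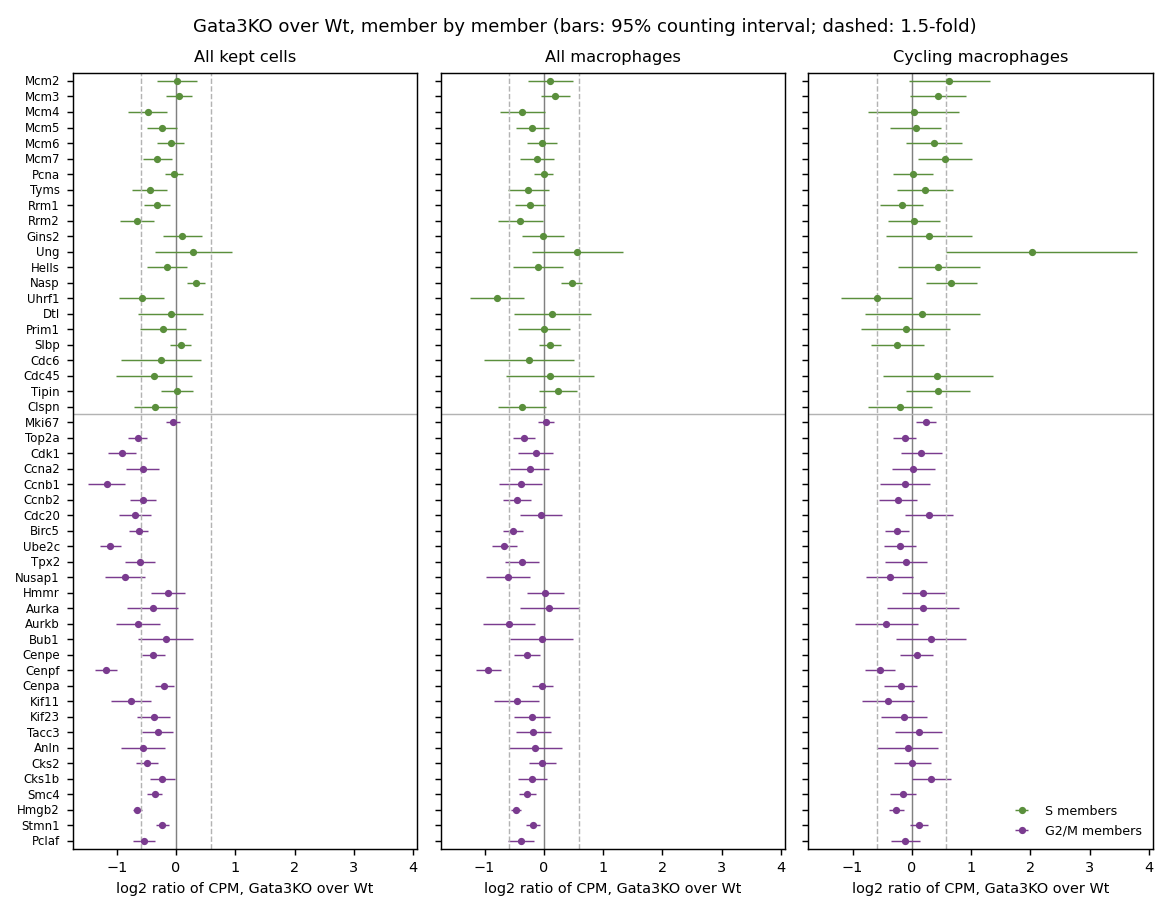
Log2 ratio Gata3KO over Wt of each member (members along the y axis, log2 ratio on the x axis), in all kept cells and in cycling macrophages, with 95% counting intervals and dashed lines at 1.5-fold. In all kept cells all 28 G2/M members lie below 0 (19 of 28 with every cell weighted alike), and in cycling macrophages none of them passes 1.5-fold.

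Beside the members, 32 other genes that start, hold or time the cycle were read. Of 30 with enough UMIs in both libraries, 10 (33.3%) were higher in cycling than in other macrophages in both, where 10.8% of 10356 genes were. The 10 were Ccnd1, Cdk2, Cdk4, Cdkn2c, Cdkn2d, Rbl1, E2f4, Myc, Lin54 and Foxm1. Myc rested on 13 UMIs in Wt cycling macrophages, from 5 of 74 cells, and 5 of the 13 came from 1 cell. Cdkn1c, an inhibitor of cyclin-dependent kinases, was lower in both, but on few UMIs. Cycling macrophages held 13 in Wt and 9 in Gata3KO, 6 of the 9 in 1 cell. Without thinning, cells with a UMI of Cdkn1c were 14.9% of cycling and 11.5% of other macrophages in Wt, and 8.51% and 10.6% in Gata3KO. The cycling cells were the deeper ones in both libraries. Foxm1, a transcription factor of G2/M genes, rose from 0.776 to 47.7 CPM in Wt and from 0.710 to 40.01 CPM in Gata3KO. Cdkn2c, an inhibitor of Cdk4 and Cdk6, rose with the members, from 5.32 to 87.9 CPM and from 8.43 to 98.9 CPM.

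Cyclin D genes differed more between the libraries than most members did. Over all kept cells Ccnd2 was at 80.9 CPM in Wt and 13.8 CPM in Gata3KO (log2 -2.56, -2.79 to -2.33), and Ccnd1 at 193 and 89.7 CPM (-1.11, -1.21 to -1.01). Within macrophages the ratios were -2.67 and -1.16. In cycling macrophages Ccnd1 was at 297 CPM in Wt and 331 CPM in Gata3KO (0.16, -0.09 to 0.40), and Ccnd2 rested on 25 and 12 UMIs. Of the 32 genes 6 were higher (Gas6, Mdm2, Gadd45a, Maf, Cdkn1a and Ccng1) and 4 lower (Ccnd2, Cdkn2a, Ccnd1 and Mybl2) over all kept cells, where 6.57% of all genes were higher and 14.9% lower. Cdkn1a, the inhibitor p21, was at 142 and 221 CPM there (0.64, 0.55 to 0.73) and at 84.6 and 265 CPM in cycling macrophages (1.64, 1.27 to 2.03). Without thinning it was found in 32 of 74 Wt and 30 of 47 Gata3KO cycling macrophages, and 1 cell held 21.0% of its Gata3KO UMIs. The Gata3KO cells were deeper (median 16874 against 8698 UMIs), and the part of depth in these cell counts was not tested. The median mitochondrial share over all barcodes, 15.7% in Wt and 21.8% in Gata3KO, moved with the genotype as well, and its part in these differences was not tested.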

How the data were processed

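Per the submitters' processing notes, the authors used R 3.6.1, Seurat 3.0.2 and Cell Ranger 3.0.1, and build mm10. Their order, settings and any filter on barcodes are not stated in those notes. The deposited tables hold raw counts, whole UMI counts per gene and barcode, and no gene is listed that was seen in fewer than 5 cells. Genes were matched by symbol, and identifiers come from GENCODE. The members, gene lists and rules were chosen with earlier results of these data known.

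Counts were summed over the cells of a class and given as CPM with exact Poisson intervals. Log2 ratios have exact conditional binomial intervals, shares exact Clopper-Pearson intervals and the difference of shares a Newcombe interval, at 95%; UMIs correct for amplification, and all cover counting error only. A gene counted as higher or lower past 1.5-fold with at least 20 UMIs over both sides. With 1 library per genotype, and cells that are not replicates, no test was made. A count of 0 was given a floor of 3 UMIs.

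Of each phase, the text names in full the 5 members highest by CPM in cycling macrophages, the 2 highest and 2 lowest genotype ratios there, the 2 with most UMIs outside cycling cells, and a panel of 8 (Mki67, Top2a, Ccnb1, Cdc20, Pcna, Mcm5, Cdc6 and Pclaf). A gene of the entry and arrest list is not reported here. Other members are named as examples of a role, after their values were seen. The intended comparison with collagen-rich cycling cells had too few cells and was replaced by cycling cells that were not macrophages. Scrublet called 0 Wt and 2 Gata3KO doublets (0.133%), too few to rely on, and they were left in. The ratio and the cycling call were checked on simulated data. Alternatives were the mitochondrial limit (10% or none), doublets left out, other calling limits, thinning to 1000 UMIs (then 2 UMIs from 2 genes) or with a second seed, other collagen limits, a Leiden cluster led by cycle genes, other scalings, a minimum of 50 UMIs or none, dendritic cells left out and every cell weighted alike. Added after seeing the data were macrophages only and the deepest cell left out. Python 3.11.15, numpy 2.4.6, scipy 1.17.1, pandas 2.3.3, scanpy 1.11.5 and leidenalg 0.10.2 were used.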

Additional observations from a re-analysis of the deposited data

Results flagged for a closer look

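Barcodes above the 20% mitochondrial limit were outside every comparison. They held cycling cells by the same call, at 7.25% of the Wt barcodes deep enough (48 of 662, 5.39 to 9.50%) and 3.72% of the Gata3KO ones (56 of 1504, 2.82 to 4.81%), and were listed here because cycle transcripts appear in data that the comparisons left out. The Wt share was above the Gata3KO share there too.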

How the results depend on the processing

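No paired analysis was possible because each genotype has 1 library. Cycling cells made up a larger share of Wt than of Gata3KO macrophages in all 12 settings run. With 3 UMIs from 2 genes the shares were 8.68% and 7.61%, with 6 from 4 genes 3.76% and 2.74%, thinned to 1000 UMIs 7.81% and 6.17%, and by the Leiden cluster 2.29% and 1.81%. The shares thinned to 1000 UMIs are of macrophages with at least 1000 UMIs, and the Leiden shares are of kept macrophages of any depth. The S share of member UMIs in Gata3KO cycling macrophages was 20.4% thinned to 1000 UMIs, 16.4% with 6 UMIs from 4 genes, 16.7% with a second seed and 21.1% with a 10% mitochondrial limit, and the Wt share was 17.6% with 3 UMIs from 2 genes. Over all kept cells the summed G2/M ratio was -0.15 with cells weighted alike, -0.31 in macrophages, -0.70 with the 10% limit and -0.60 with every barcode. The summed S ratio was 0.083 with cells weighted alike, 0.014 in macrophages and -0.17 with every barcode. Members higher were 1 with cells weighted alike and 1 with the 10% limit, and members lower were 4 with cells weighted alike and 5 in macrophages. With cells weighted alike Stmn1 (0.11), Top2a (0.13), Aurkb (0.42), Cenpa (0.23) and Smc4 (0.035) changed sign over all kept cells, as did Hmgb2 (0.10) and Birc5 (0.084) in cycling macrophages. In cycling macrophages the summed G2/M ratio was -0.20 with the 10% limit, -0.016 without the deepest cell, -0.17 with 3 UMIs from 2 genes, 0.17 with cells weighted alike, 0.053 by the Leiden cluster and -0.14 thinned to 1000 UMIs. The summed S ratio was -0.52 by the Leiden cluster, -0.085 with a second seed and -0.019 with 3 UMIs from 2 genes. Members higher there were 1 with 3 UMIs from 2 genes, 5 with the 10% limit, 1 with a second seed, 0 with 6 UMIs from 4 genes, 1 by the Leiden cluster and 8 with cells weighted alike. Members lower were 3 with 3 UMIs from 2 genes, 9 by the Leiden cluster, and 0 without mitochondrial and ribosomal genes, without the deepest cell, thinned to 1000 UMIs or with every barcode. Cycling collagen-rich cells were 0 in Gata3KO by the Leiden cluster or a 1% collagen limit, and 1 in Wt with every barcode or a 0.2% limit. Members higher in non-macrophage cycling cells were 2 by the Leiden cluster, 11 with 3 UMIs from 2 genes and 3 without the deepest cell. The causes were not tested. Of 482 values of named members under these settings, 431 moved by less than their counting interval and 44 moved more. The other 7 changed sign from a main value whose interval did not hold 0. Of 184 other values, 132 stayed, 45 moved and 7 changed sign in that sense. Changes of sign from a main value whose interval held 0, as for Mki67 over all kept cells, are not counted among the 7. The second thinning called 68 Wt and 48 Gata3KO macrophages cycling, 56 and 33 of them in common with the first.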
